A study of Rattus norvegicus with 21 samples.

Results

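The Nr4a family of orphan nuclear receptors was followed in RNA sequencing of rat pancreatic islets, as the genes of the count table named Nr4a1 (gene ID 79240), Nr4a2 (54278) and Nr4a3 (58853). All 3 genes were found among 17025 genes, and all 3 passed the filter on low counts, as did 12576 genes in all. Sprague Dawley islets were isolated 3 times, each time pooled from 8 rats and divided over culture groups, which gave 21 libraries. The cultures were glucolipotoxic medium (GLT, 27 mM glucose with 300 µM palmitate) plus 300 nM of either compound D or compound E, GLT alone, and control medium with 11 mM glucose and no palmitate. Culture lasted 3 h or 24 h. Groups had 1 library in each of preparations 1 to 3, except those with compound E, which had libraries of preparations 1 and 2 at 24 h and of preparation 2 alone at 3 h. No group without GLT received a compound, and no structure or target of either compound is given. Whole islets hold several cell types, so fewer cells of a type and less RNA per cell cannot be told apart.

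Nr4a receptors bind DNA as transcription factors without a known hormone. Nr4a1 (Nur77), Nr4a2 (Nurr1) and Nr4a3 are immediate early genes: resting cells hold little of their RNA, and calcium, cAMP or growth signals raise it quickly and briefly, in large part through the factor CREB at cAMP response elements. Because the receptors act without a ligand, their RNA level is a main control of their activity. In rat islets Nr4a1 and Nr4a3 are known as factors that drive beta cell replication downstream of Nkx6-1, and Nr4a2 is best known for its role in dopamine neurons.

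The promoter sequences are shown as background, since CREB sites are the textbook route of Nr4a induction. Whether such sites had a part in the results below was not tested. RefSeq's GRCr8 table held 2 of the 3 members, Nr4a1 and Nr4a2. Each line is the 250 bases before the listed start, 5′ to 3′ on the gene's strand, with the core of the cAMP response element, TGACG, in capitals, which reads as its reverse complement CGTCA where it lies on the opposite strand. They lie at chr7:134259888-134260137 on the plus strand and chr3:62104888-62105137 on the minus strand.
Nr4a1: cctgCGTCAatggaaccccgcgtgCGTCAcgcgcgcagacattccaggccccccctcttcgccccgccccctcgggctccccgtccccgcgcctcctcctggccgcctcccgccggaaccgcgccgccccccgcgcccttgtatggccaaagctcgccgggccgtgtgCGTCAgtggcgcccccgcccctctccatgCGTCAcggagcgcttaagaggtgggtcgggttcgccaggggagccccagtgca
Nr4a2: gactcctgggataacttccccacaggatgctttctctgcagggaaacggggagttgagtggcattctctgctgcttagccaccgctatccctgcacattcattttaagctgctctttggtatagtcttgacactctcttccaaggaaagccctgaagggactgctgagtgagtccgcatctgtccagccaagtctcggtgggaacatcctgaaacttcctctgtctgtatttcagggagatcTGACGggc

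The Nr4a1 window held 4 such cores, which begin at -246, -226, -82 and -53 from the start, all read on the other strand. The Nr4a2 window held 1, which begins at -8. Among 33469 promoter windows of the same length, 18.2% had at least 1 core and 0.173% had 4 or more. Neither window held the full element TGACGTCA (1.59% of all windows), the Nr4a monomer site AAAGGTCA (1.24%), the CArG box of SRF (1.5%) or the MEF2 site (0.523%). Both strands were searched for each, and the core is part of the full element. Both listed starts lie inside the annotated span of their gene, 12985 (Nr4a1) and 11039 (Nr4a2) bases from its edge, so other starts may exist. G and C made up 74.8% of the Nr4a1 window and 52.0% of the Nr4a2 window, and the shares above are not matched for this. A match is a run of letters and not a shown site.

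The labels of 6 libraries, those numbered conditions 2 and 3 in each preparation, disagree between their sources. The sample records call condition 2 the 24 h control and condition 3 the 3 h GLT group, whereas the deposited sample sheet swaps these 2 names. The summed level of the 4 red cell markers was 4.03 to 14.2 CPM (a gene's counts scaled to a common library total) in the 7 undisputed 3 h libraries and 0.377 to 1.34 CPM in the 8 undisputed 24 h libraries. Condition 2 lay at 8.99 to 13.8 CPM and condition 3 at 0.571 to 0.665 CPM. The 7 endothelial markers found summed to 161 to 213 CPM at 3 h, 25.3 to 93 CPM at 24 h, 182 to 217 CPM in condition 2 and 70.7 to 104 CPM in condition 3. On both lists condition 2 lay with the 3 h libraries and condition 3 with or next to the 24 h libraries. These are the times in the sheet and not those in the records. However, every undisputed 24 h library had GLT, and no undisputed 3 h library had GLT alone. Time and treatment thus cannot be told apart here, and the markers do not settle the labels. The 8 stellate cell markers set condition 3 apart from all other groups, at 1080 to 1510 CPM, against 343 to 911 CPM elsewhere. Comparisons between groups without these libraries come first below, though all 21 libraries enter the fit. The other comparisons are given under both names.

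Depth was 22.3 to 40.2 M counts in genes (median 27.8 M), so that 3 counts, the detection limit used, corresponded to 0.0804 to 0.144 CPM. The insulin genes took 9.32% to 45.9% of counts and the ribosomal precursor Rn45s 0.0333% to 7.88%. CPM is scaled by TMM, a correction for library composition. Fold changes were fitted with edgeR's quasi-likelihood test over all 21 libraries with the preparation as a block, and passing means an adjusted p (Benjamini-Hochberg, over all genes tested) below 0.05. SE is the standard error of a log2 fold change. Whether groups overlap is a description of the libraries and not a test, and the share of all genes without overlap was not counted.

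**Figure D1:**
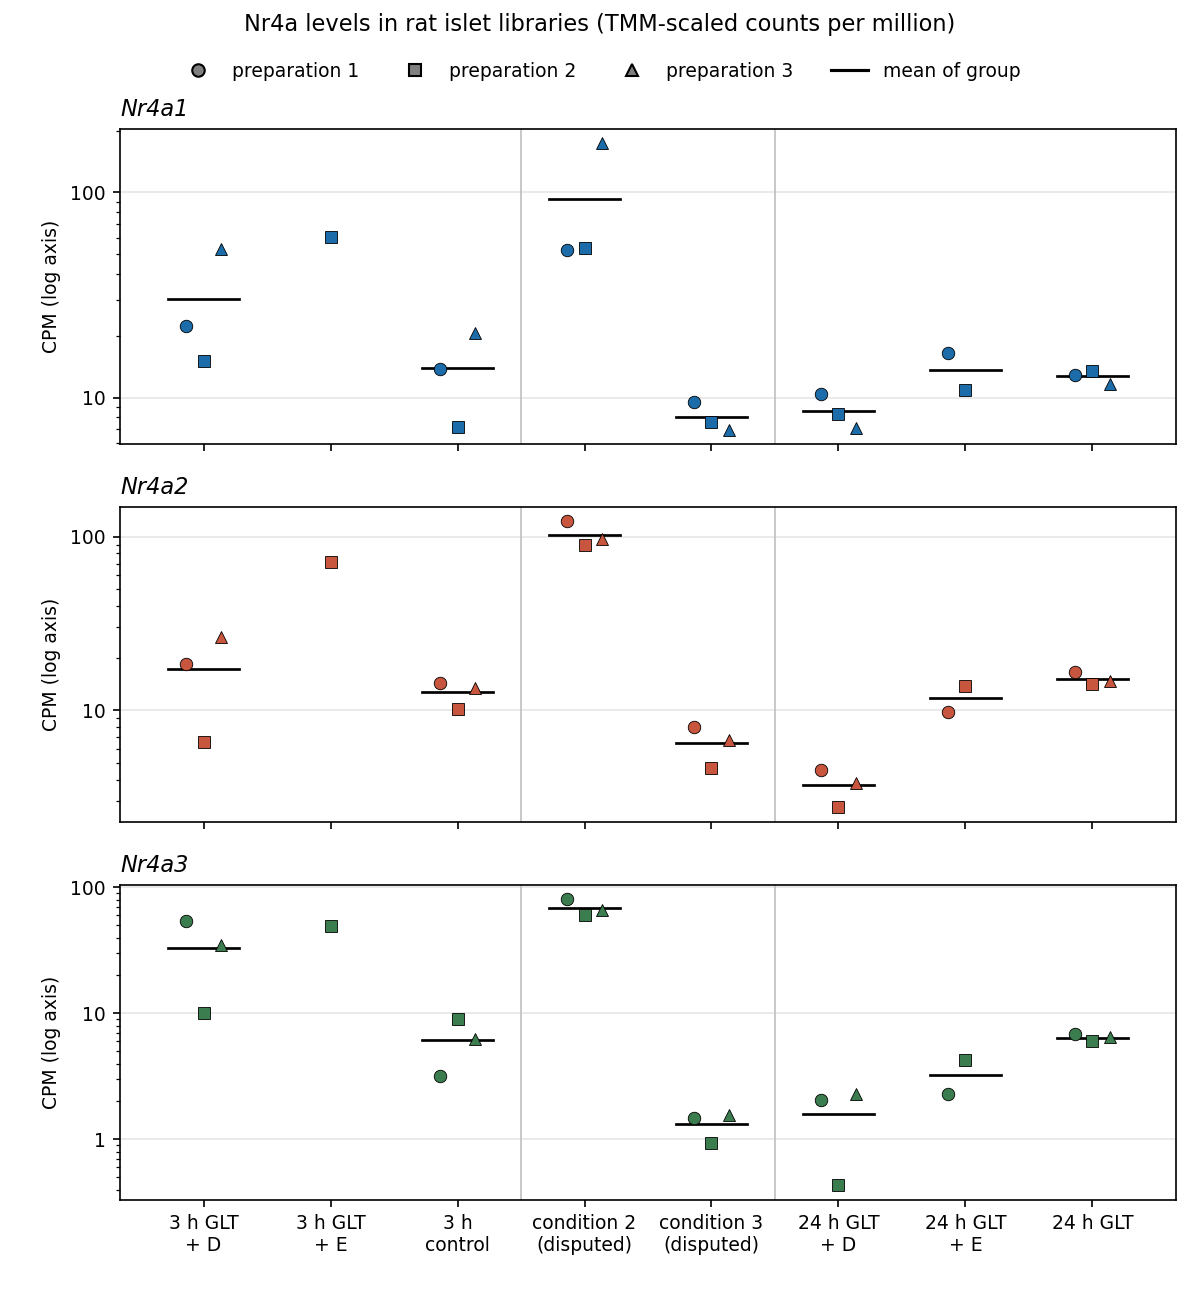
Level of each Nr4a gene in every library, in TMM-scaled CPM on a log axis. Points are libraries, with the preparation given by the symbol, and bars are group means. The group means were highest in condition 2 (93.2, 103 and 68.8 CPM for Nr4a1, Nr4a2 and Nr4a3), and at 24 h Nr4a2 and Nr4a3 were lower with compound D than in 24 h GLT in every preparation.

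At 24 h, Nr4a2 fell with compound D, to 0.238 times its level in GLT alone (95% interval 0.148 to 0.385). Nr4a3 was lower by a similar amount without passing, Nr4a1 was lower by less, and none of the 3 passed with compound E. Nr4a2 measured 4.54, 2.76 and 3.81 CPM with compound D in preparations 1 to 3, against 16.7, 14.2 and 14.8 CPM in 24 h GLT. The groups did not overlap, the GLT libraries lay close together, and the difference had the same sign in all 3 preparations (log2 fold change -2.07, SE 0.32, edgeR adjusted p = 0.00286).

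Nr4a3 measured 2.07, 0.432 and 2.28 CPM with compound D, against 6.82, 5.99 and 6.47 CPM in 24 h GLT. The groups did not overlap, and the library of preparation 2 was the lowest of all 21, resting on 10 counts. The difference was -2.05 (SE 0.57, adjusted p = 0.0587 by edgeR). It did not pass in 8 of 10 alternative settings or in 17 of 24 fits with libraries left out. With library size only it was -1.98 (adjusted p = 0.16 by edgeR). DESeq2 gave -2.10 with an adjusted p = 0.00368, a fit of only these groups gave -2.16 with an adjusted p = 0.0438, and without preparation 2 edgeR gave -1.59 with an adjusted p = 0.0365.

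Nr4a1 measured 10.4, 8.34 and 7.13 CPM with compound D, against 12.9, 13.5 and 11.7 CPM in 24 h GLT. The groups did not overlap here either, yet the fold of 0.677 (95% interval 0.369 to 1.24) did not pass (-0.56, SE 0.41, adjusted p = 0.554 by edgeR). In this comparison 4.09% of all genes tested passed, against 1 of the 3 members.

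Libraries differed in more than treatment. The insulin genes took 43.3% of counts with compound D in preparation 2 and at most 11.7% in preparations 1 and 3, against 23.0%, 25.8% and 9.32% in preparations 1 to 3 of 24 h GLT, and Rn45s took 7.23%, 1.56% and 6.92%, against 1.57%, 1.59% and 4.89%. Endothelial markers summed to 25.3 to 93 CPM with compound D, against 32.5 to 84.2 CPM, and macrophage markers to 36.4 to 60.2 CPM, against 34 to 45.3 CPM. The part of these in the result was not tested. By preparation the log2 difference of Nr4a2 was -1.77, -2.17 and -1.83. The Nr4a2 call was lost without preparation 1 (-2.18, adjusted p = 0.125) and without preparation 3 (-2.11, adjusted p = 0.0529). The count over all genes was 0 without preparation 1, against 514 with all preparations.

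With compound E at the same time and dose, Nr4a2 measured 9.76 and 13.7 CPM in preparations 1 and 2, Nr4a3 2.31 and 4.24 CPM, and Nr4a1 16.5 and 10.9 CPM. Nr4a2 and Nr4a3 lay below the 24 h GLT libraries without overlap, Nr4a2 in preparation 2 by little (log2 difference -0.05) and in preparation 1 by more (-0.74), and Nr4a1 lay on both sides of them. The folds over 24 h GLT were 0.849 for Nr4a2 (95% interval 0.505 to 1.43), 0.563 for Nr4a3 (0.223 to 1.42) and 1.19 for Nr4a1 (0.603 to 2.33). None passed, and neither did any other gene (0% of genes tested by edgeR, 0 by DESeq2, 812 at an unadjusted p under 0.05). The sign for Nr4a2 rests on the library of preparation 1: without it the log2 fold change was 0.24, against -0.24 with it. The sign for Nr4a1 turned to -0.17 with scaling by library size only. Without preparation 2 the log2 fold change of Nr4a3 was -1.55, but 1 compound E library is then left, so no call is given.

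**Figure D2:**
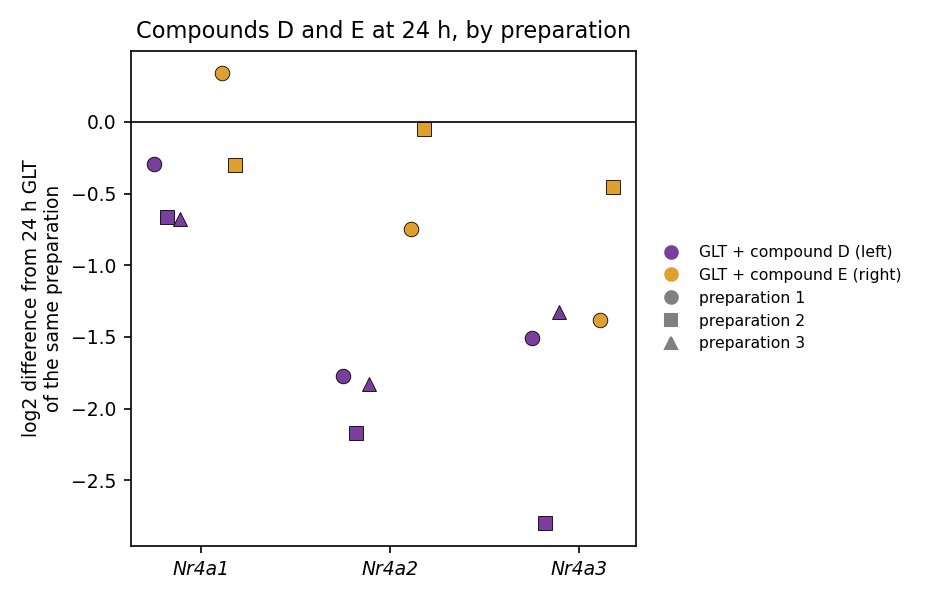
Difference of each compound library from the 24 h GLT library of the same preparation, in log2(CPM + 0.5), with compound D left and compound E right of each gene's tick. Compound D lies between -1.33 and -2.80 for Nr4a2 and Nr4a3, and compound E between -0.05 and -1.38.

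The compounds were also compared directly. Nr4a2 was 3.56-fold higher with compound E than with compound D (95% interval 2.10 to 6.02, log2 fold change 1.83, SE 0.36, edgeR adjusted p = 0.0132, higher in both shared preparations). Nr4a3 (1.22, SE 0.65, adjusted p = 0.339) and Nr4a1 (0.81, SE 0.46, adjusted p = 0.364) did not pass, with intervals of 0.892 to 6.06 and 0.894 to 3.44 for the fold. Leaving out libraries moved the log2 fold change of Nr4a3 between 0.04 (without preparation 2) and 2.07 (without preparation 1). Of all genes tested 3.01% passed. In preparation 1, where 42.6% of counts were from insulin genes with compound E and 11.7% with compound D, the log2 difference of Nr4a2 was 1.02, and in preparation 2, with 35.3% and 43.3%, it was 2.13. The Nr4a2 call did not hold with library size only (1.49, adjusted p = 0.0856) or in a fit of only these libraries (1.71, adjusted p = 1). It also did not hold in edgeR without the block (1.66, adjusted p = 0.0538), in the 15 undisputed libraries (1.84, adjusted p = 0.0559) or without preparation 3 (adjusted p = 0.0783). Without preparation 1 the log2 fold change was 2.37, but 1 compound E library is then left, so no call is given.

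Time was compared under GLT with compound D, where neither group holds disputed libraries, and all 3 members fell between 3 h and 24 h. Nr4a3 had the largest fitted difference of the 3: it measured 2.07, 0.432 and 2.28 CPM at 24 h, against 54.3, 10.1 and 35.0 CPM at 3 h. These groups were far apart, with the lowest library at both times from preparation 2 (-4.33, SE 0.60, edgeR adjusted p = 0.00108).

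Nr4a2 measured 4.54, 2.76 and 3.81 CPM at 24 h, against 18.6, 6.55 and 26.6 CPM at 3 h (-2.15, SE 0.33, edgeR adjusted p = 0.00171). Nr4a1 measured 10.4, 8.34 and 7.13 CPM at 24 h, against 22.5, 15.2 and 53.0 CPM at 3 h (-1.62, SE 0.42, edgeR adjusted p = 0.0349). Neither pair of groups overlapped, and preparation 3 had the highest 3 h level of both genes. In all, 6.11% of genes tested passed in this comparison. No call held without preparation 1 (adjusted p = 0.232 for Nr4a1, adjusted p = 0.111 for Nr4a2 and adjusted p = 0.0696 for Nr4a3) or without preparation 3, and that of Nr4a1 was also lost without a block for the preparation (-1.81, adjusted p = 0.0588) and in the 15 undisputed libraries (-1.64, adjusted p = 0.0521). Over all genes, 9 passed without preparation 1, against 769 with all preparations.

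At 3 h, GLT with compound D was set against control, and no member passed in edgeR. Nr4a3 measured 54.3, 10.1 and 35.0 CPM in GLT with compound D, against 3.17, 8.96 and 6.25 CPM in control. The groups did not overlap, but the gap was wide in preparations 1 and 3 and narrow in preparation 2 (log2 differences 3.90, 2.40 and 0.16). The fitted value was 2.29 (SE 0.56, adjusted p = 0.183 by edgeR, adjusted p = 0.00443 by DESeq2, which gave 2.28), and without preparation 2 it was 3.27 with an adjusted p = 0.00246 by edgeR. The difference did not pass in 9 of 10 alternative settings or in 23 of 24 fits with libraries left out.

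Nr4a1 measured 22.5, 15.2 and 53.0 CPM in GLT with compound D, against 13.8, 7.20 and 20.7 CPM in control, higher in every preparation although the groups overlap (1.07, SE 0.41, edgeR adjusted p = 0.587). Nr4a2 measured 18.6, 6.55 and 26.6 CPM, against 14.5, 10.2 and 13.5 CPM, with no common direction (0.36, SE 0.31, edgeR adjusted p = 0.973). Its sign turned without preparation 3 (-0.06) and without the compound D library of that preparation (-0.10). Only 0.103% of genes tested passed.

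The single 3 h GLT library with compound E, from preparation 2, held much more of all 3 RNAs than the 3 h control library of its preparation. It allows no test, and the intervals here cover counting error only. Nr4a1 was 60.4 CPM (exact Poisson 95% interval 57.6 to 63.3) with compound E, against 15.2 CPM with compound D and 7.20 CPM in control. Nr4a2 was 71.8 CPM (68.8 to 74.9), against 6.55 CPM with compound D and 10.2 CPM in control. Nr4a3 was 49.7 CPM (47.2 to 52.3), against 10.1 CPM with compound D and 8.96 CPM in control. In condition 2 of preparation 2 the levels were 53.6, 89.1 and 59.9 CPM for Nr4a1, Nr4a2 and Nr4a3, and in condition 3 they were 7.60, 4.66 and 0.932 CPM.

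Condition 2, the 24 h control by the records and 3 h GLT by the sheet, had the highest mean of all groups for each member. Nr4a2 measured 123, 89.1 and 96.3 CPM, against 14.5, 10.2 and 13.5 CPM in 3 h control, 8.13-fold higher (3.02, SE 0.33, edgeR adjusted p = 0.000167). Nr4a3 measured 80.7, 59.9 and 65.9 CPM, against 3.17, 8.96 and 6.25 CPM, 10.7-fold higher (3.42, SE 0.57, edgeR adjusted p = 0.00402). Nr4a1 measured 52.4, 53.6 and 174 CPM, against 13.8, 7.20 and 20.7 CPM, 6.47-fold higher (2.69, SE 0.43, edgeR adjusted p = 0.00303).

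No group pair in these comparisons overlapped, every preparation had the same sign, and all 3 members passed where 2.30% of all genes did. By the sheet this is 3 h GLT against 3 h control, and by the records 24 h against 3 h in control medium. Preparation 3 gave the highest Nr4a1 value of any library, while Nr4a2 and Nr4a3 were highest in preparation 1. Without preparation 1 none of the 3 passed (adjusted p = 0.156 for Nr4a1, adjusted p = 0.0837 for Nr4a2 and adjusted p = 0.156 for Nr4a3), and without preparation 3 Nr4a3 did not (adjusted p = 0.17). Over all genes, 7 passed without preparation 1, against 289 with all preparations.

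Condition 3, 3 h GLT by the records and 24 h control by the sheet, lay at the other end. Nr4a3 measured 1.49, 0.932 and 1.56 CPM, against 3.17, 8.96 and 6.25 CPM in 3 h control (-2.29, SE 0.58, adjusted p = 0.0865 by edgeR, adjusted p = 0.00271 by DESeq2, which gave -2.31). Nr4a2 measured 8.02, 4.66 and 6.72 CPM, against 14.5, 10.2 and 13.5 CPM (-0.99, SE 0.31, edgeR adjusted p = 0.176). Nr4a1 measured 9.54, 7.60 and 6.98 CPM, against 13.8, 7.20 and 20.7 CPM (-0.65, SE 0.41, edgeR adjusted p = 0.58). Groups overlapped for Nr4a1 only, and no member passed in edgeR, where 0.692% of genes did.

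The effect of 24 h GLT on the family changed sign with the labels. By the sheet, 24 h GLT against condition 3, Nr4a3 was 4.93-fold higher (2.30, SE 0.58, edgeR adjusted p = 0.0317) and Nr4a2 2.42-fold higher (1.27, SE 0.31, edgeR adjusted p = 0.0295). Nr4a1 did not pass (0.67, SE 0.41, adjusted p = 0.382). None of the groups overlapped, with 6.82, 5.99 and 6.47 CPM of Nr4a3 in 24 h GLT against 1.49, 0.932 and 1.56 CPM, and 5.97% of genes passed. The calls of Nr4a2 and Nr4a3 were lost on leaving out any of the 3 preparations except preparation 2, any library of either group, or the composition scaling (adjusted p = 0.0762 and adjusted p = 0.07). Over all genes, 15 passed without preparation 1, against 751 with all preparations.

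By the records, 24 h GLT against condition 2, all 3 members were lower, with Nr4a3 at 0.0938-fold (-3.41, SE 0.56, edgeR adjusted p = 0.00262), Nr4a2 at 0.149-fold (-2.74, SE 0.32, edgeR adjusted p = 0.00026) and Nr4a1 at 0.157-fold (-2.67, SE 0.43, edgeR adjusted p = 0.00228). Of all genes tested 8.52% passed. Without preparation 1 no member passed (adjusted p = 0.115, adjusted p = 0.0774 and adjusted p = 0.0842 for Nr4a1, Nr4a2 and Nr4a3), nor did Nr4a3 without preparation 3 (adjusted p = 0.112). The count over all genes was 21 without preparation 1, against 1072 with all preparations. The change of the GLT effect between the times is the same contrast under both names, and no member passed it (0.0716% of genes did). It was -2.02 for Nr4a1 (SE 0.58, adjusted p = 0.273), -1.75 for Nr4a2 (SE 0.44, adjusted p = 0.194) and -1.12 for Nr4a3 (SE 0.78, adjusted p = 0.783). For Nr4a2 it passed in DESeq2 (-1.74, adjusted p = 0.0267) and in a fit of these 4 groups alone (-1.75, adjusted p = 0.00979). It did not pass in 7 of 9 alternative settings or in any of 24 fits with libraries left out.

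Compound D at 3 h was likewise read under both names. By the sheet it is set against condition 2, and Nr4a2 was lower with compound D, 18.6, 6.55 and 26.6 CPM against 123, 89.1 and 96.3 CPM (0.158-fold, -2.66, SE 0.32, edgeR adjusted p = 0.00172), the groups well apart. Nr4a1 (-1.62, SE 0.41, adjusted p = 0.134) and Nr4a3 (-1.14, SE 0.52, adjusted p = 0.718) did not pass, though both were lower in every preparation. For Nr4a1 the groups overlapped, with 53.0 CPM in preparation 3 with compound D and 52.4 CPM in preparation 1 of condition 2. Of all genes 0.485% passed. This comparison with condition 2 was not refitted under the other settings or with libraries left out, so how firm its call is was not tested.

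By the records compound D is set against condition 3, and all 3 members were higher with it, Nr4a3 by 4.58 (SE 0.61, edgeR adjusted p = 0.00112), Nr4a1 by 1.72 (SE 0.42, edgeR adjusted p = 0.024) and Nr4a2 by 1.35 (SE 0.32, edgeR adjusted p = 0.0199), where 6.93% of genes passed. The groups of Nr4a2 overlapped. No member passed in a fit of only these 2 groups (adjusted p = 0.208 for Nr4a1, adjusted p = 0.217 for Nr4a2 and adjusted p = 0.135 for Nr4a3). Without preparation 1 or without preparation 3 no member passed either. The count over all genes was 7 without preparation 1, against 872 with all preparations. The change of the compound D effect from 3 h to 24 h, a comparison added after the values were seen, passed for all 3 members by the records (7.75% of genes) and for none by the sheet (0.0318% of genes). By the sheet it was 1.06 for Nr4a1 (SE 0.57, adjusted p = 0.681), 0.59 for Nr4a2 (SE 0.44, adjusted p = 0.791) and -0.91 for Nr4a3 (SE 0.75, adjusted p = 0.819).

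**Figure D3:**
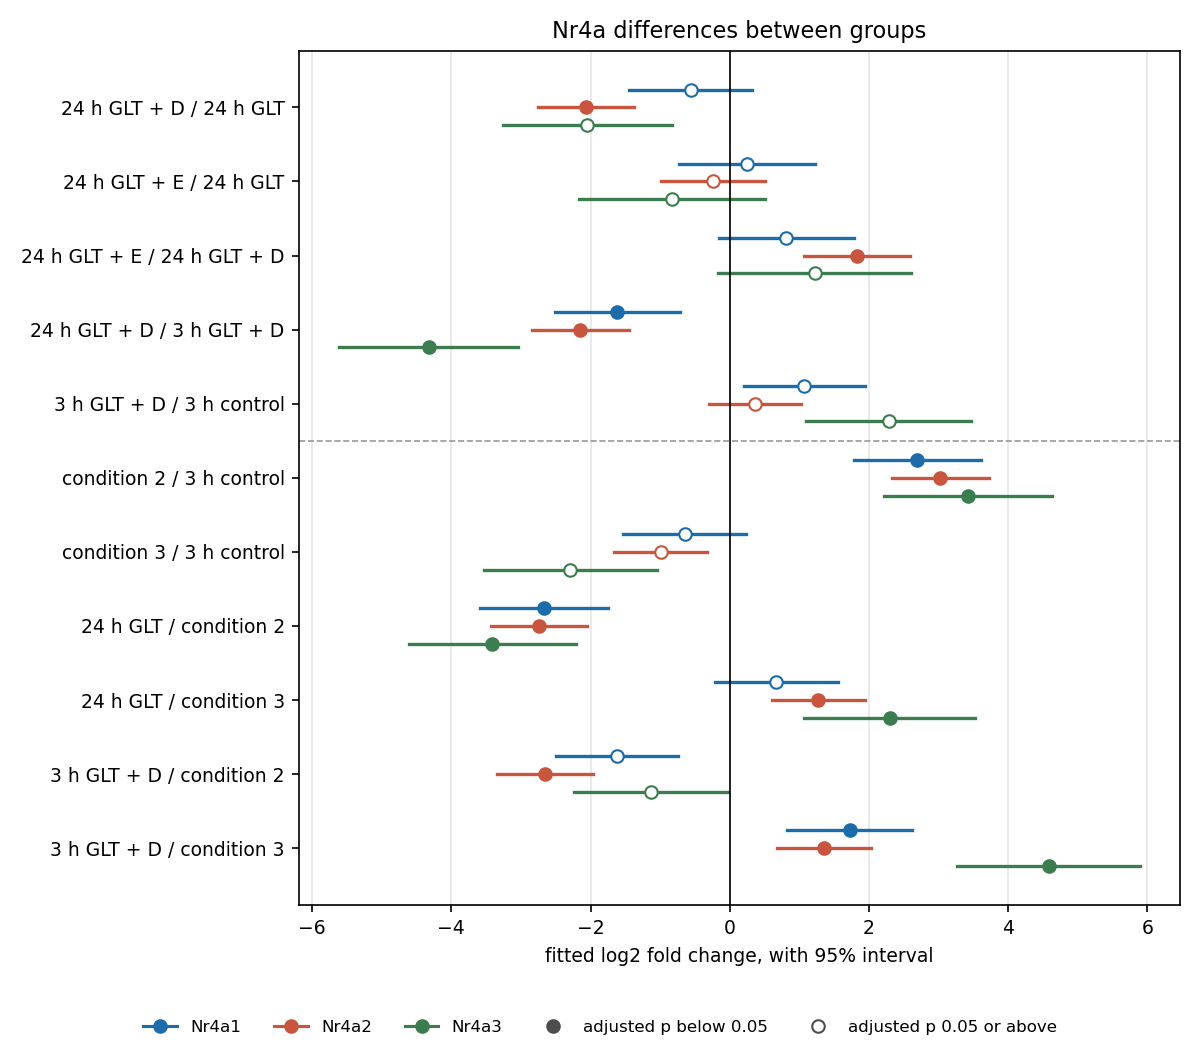
Fitted log2 fold changes with 95% intervals, the group before the slash over the one after it. Filled points passed, and comparisons under the dashed line use the disputed libraries. The members share their direction in all rows where all of them passed, and 24 h GLT is lower than condition 2 (-2.67 to -3.41) and higher than condition 3 (0.67 to 2.30).

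The order of the groups was much the same for the 3 genes. By group mean, condition 2 was highest, the single 3 h GLT library with compound E next and 3 h GLT with compound D the third, for each member. For Nr4a1 that single library, of preparation 2 (60.4 CPM), lay above condition 2 in preparations 1 and 2 (52.4 and 53.6 CPM). The lowest mean was that of 24 h GLT with compound D for Nr4a2 (3.70 ± 0.89 CPM, SD, n = 3) and of condition 3 for Nr4a1 (8.04 ± 1.34 CPM, SD, n = 3) and Nr4a3 (1.33 ± 0.35 CPM, SD, n = 3). In the middle, 24 h GLT with compound E, 3 h control and 24 h GLT followed each other with overlapping ranges for Nr4a2 and Nr4a3, while 3 h GLT with compound D overlapped the group below it for Nr4a1 and Nr4a2, and the 3 h compound E library above it for Nr4a3. Condition 3 and 24 h GLT with compound D overlapped for Nr4a1 and Nr4a3, not for Nr4a2. At 24 h the undisputed libraries ran from 7.13 to 16.5 CPM for Nr4a1, from 2.76 to 16.7 CPM for Nr4a2 and from 0.432 to 6.82 CPM for Nr4a3. With scaling by library size only, 24 h GLT with compound E and 24 h GLT changed places for Nr4a1 (10.3 and 13.7 CPM), and the order of the other groups held for each member.

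Patterns were compared over the 21 libraries as Pearson's r of log2(CPM + 0.5) after subtracting preparation means, a description in which the points share preparations and the disputed libraries weigh much. Among the members r was 0.898 for Nr4a2 and Nr4a3, 0.896 for Nr4a1 and Nr4a2, and 0.860 for Nr4a1 and Nr4a3. In the 15 undisputed libraries it was 0.808, 0.811 and 0.765.

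The genes most like Nr4a2 were Tes, which encodes a cytoskeletal LIM protein (r = 0.972), Giot1, a zinc finger gene (0.961), Midn (0.958), Gpr180 (0.953) and the adhesion scaffold gene Nedd9 (0.944). Those most like Nr4a3 were Coq10b, which encodes a coenzyme Q binding protein (0.968), the AP-1 gene Fosl2 (0.965), Ppargc1a, the coactivator of mitochondrial genes (0.957), the ascorbate transporter gene Slc23a2 (0.952) and the glutaminase gene Gls2 (0.944). Nr4a1 was most like RGD1562747 (0.942), the BMP signal gene Smad1 (0.939), Giot1 (0.937), Spata2L (0.934) and the immediate early gene Fos (0.929). Each r stayed between 0.872 and 0.942 in the undisputed libraries. These genes were chosen over the same libraries, so their differences are a description. With compound D at 24 h all 14 had a negative log2 fold change, from -0.11 for Spata2L to -1.57 for Giot1. Only Giot1, Midn, Nedd9, Gls2 and Fosl2 (-1.15) passed. Fos (-1.38, SE 0.53, edgeR adjusted p = 0.178) and Ppargc1a (-1.37, SE 0.57, edgeR adjusted p = 0.229) were among those that did not.

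**Figure D4:**
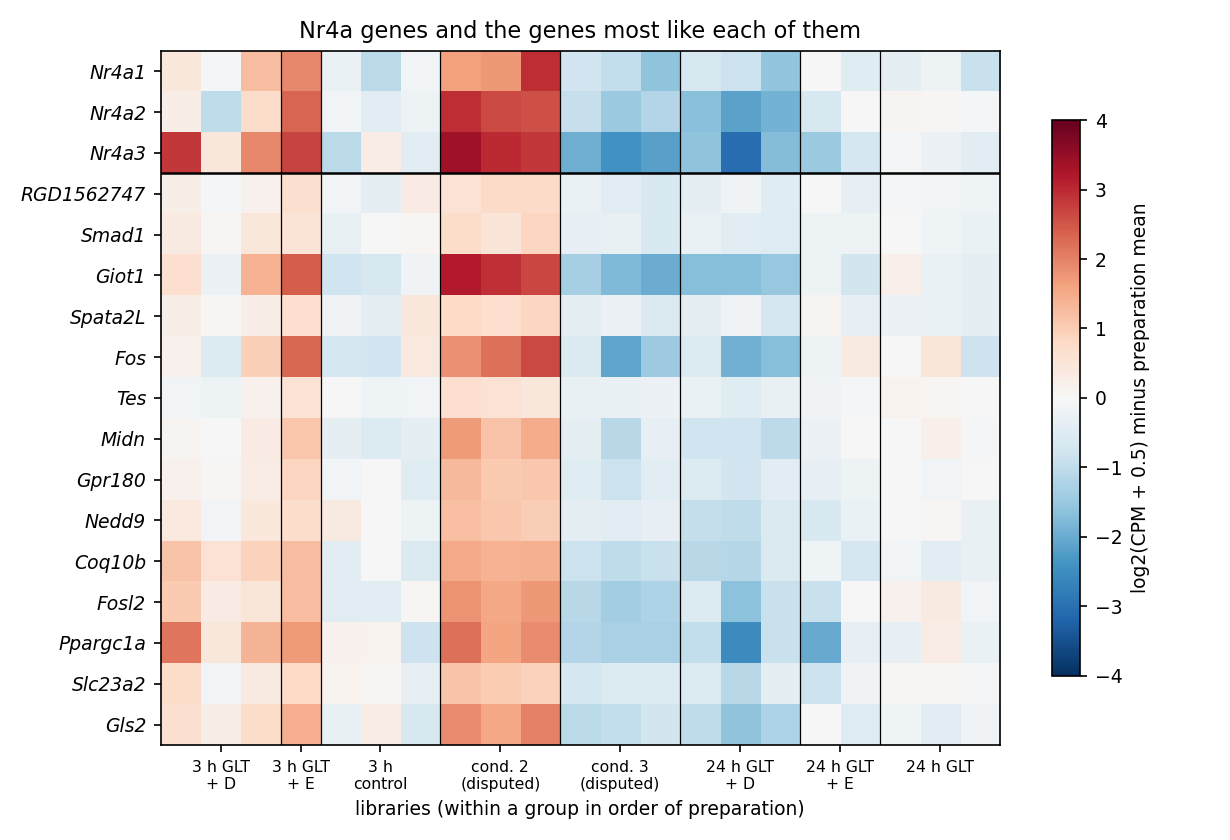
Heat map of log2(CPM + 0.5) minus the mean of the preparation for the 3 members (above the line) and the 14 genes most like any of them, in the 21 libraries by group. Red is higher and blue lower. Condition 2 and the 3 h GLT library with compound E are above 0 (red) for the 3 members and the 14 other genes, and 24 h GLT with compound D is below 0 (blue).

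Other immediate early genes and CREB targets were counted from a list of 32, all tested. With compound D at 24 h the list median was -0.78 on the log2 scale, against 0.01 over all genes tested. There 4.09% of all genes passed, and of the list 10 fell and 0 rose. They included Rgs2, a brake on G protein signals (-1.75, SE 0.21), the stress factor gene Atf3 (-1.89, SE 0.32), the zinc finger factor gene Klf4 (-2.04, SE 0.37) and Sik1, a kinase gene that CREB induces and that curbs CREB's coactivators (-1.81, SE 0.36). With scaling by library size only 4 passed. Between compounds at 24 h, where 3.01% of all genes passed, 7 were higher with compound E and 0 lower (median 0.90). Rgs2 (1.76, SE 0.23) and the AP-1 gene Fosl1 (2.19, SE 0.34) came first, and 4 passed with library size only. Against 24 h GLT, compound E had 0 past the test (median 0.23).

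From 3 h to 24 h of GLT with compound D, where 6.11% of all genes passed, 5 of the 32 fell and 0 rose. Among those that fell were Rgs2 (-2.09, SE 0.21), Klf4 (-2.47, SE 0.38), Fosl2 (-1.64, SE 0.29) and Crem, a CREB family gene with an inducible repressor form (-1.33, SE 0.26). In condition 2 against 3 h control, where 2.30% of all genes passed, 16 rose and 0 fell (median 1.28). Klf4 (3.90, SE 0.39), Rgs2 (2.09, SE 0.21), Gem (1.57, SE 0.20) and Nfil3 (1.91, SE 0.25) led these. In 24 h GLT against condition 3, where 5.97% of all genes passed, 11 rose and 0 fell (median 0.86). In 24 h GLT against condition 2, where 8.52% of all genes passed, 12 fell and 0 rose (median -0.83). With library size only these last counts were 7, 8 and 4.

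Genes that carry the inducing signals were counted from a list of 33 kinases, phosphatases, CREB coactivators, NFAT, MEF2 and SRF factors and class IIa histone deacetylases, of which 27 were tested. With compound D at 24 h, where 4.09% of all genes passed, 1 rose, Prkar2b, which encodes a regulatory subunit of protein kinase A (0.70, SE 0.17, edgeR adjusted p = 0.0314), and 0 fell. Between compounds, where 3.01% of all genes passed, Prkar2b was also the 1 that passed, lower with compound E (-0.77, SE 0.20, edgeR adjusted p = 0.0469), and 0 passed in both with library size only. Hdac5, which encodes a deacetylase that holds MEF2 targets down, rose in condition 2 against 3 h control (1.10, SE 0.24, edgeR adjusted p = 0.0251), and was lower in 24 h GLT than in condition 2 (-1.24, SE 0.24, edgeR adjusted p = 0.00759), as was Crebbp, which encodes a CREB coactivator (-0.71, SE 0.15, edgeR adjusted p = 0.0109). Camk2b, a calcium-dependent kinase gene, was lower in 24 h GLT than in condition 3 (-0.63, SE 0.16, edgeR adjusted p = 0.0371).

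Of 14 partners and corepressors, such as the RXR genes and Bcl2, 13 were tested. In edgeR 0 passed in any comparison, where 0% to 8.52% of all genes did. Of 15 genes linked with the family in beta cells, 0 passed for compound D at 24 h, where 4.09% of all genes did. Ddit3, which encodes the stress factor CHOP, was higher with compound E than with compound D (1.61, SE 0.33, edgeR adjusted p = 0.0166) and higher in 24 h GLT than in condition 3 (1.18, SE 0.30, edgeR adjusted p = 0.0314). The proliferation marker gene Mki67 fell from 3 h to 24 h of GLT with compound D (-1.56, SE 0.43, edgeR adjusted p = 0.0434), and Ube2c, a replication gene linked with Nr4a1 in rat islets, was lower in condition 3 than in 3 h control (-2.08, SE 0.44, edgeR adjusted p = 0.0432). Pdx1 (-1.12, SE 0.26, edgeR adjusted p = 0.0159) and Nkx6-1 (-0.76, SE 0.21, edgeR adjusted p = 0.0364), beta cell factor genes, were lower in 24 h GLT than in condition 2.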

How the data were processed

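Total RNA of whole islets was sequenced as paired reads of 100 bases. Per the labels' protocols, TopHat2 2.0.3 and Bowtie2 2.0.0 aligned the reads to rn5, and they were summarised as raw counts per gene with HT-seq, and the deposited table holds these counts for 17025 genes in 21 libraries. The 5 entries that name no gene (17.7% to 37.9% of a library) were left out. Groups were taken from the sample records, and conditions 2 and 3 are also given as the sample sheet names them.

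Counts were tested with edgeR 4.0.16 (R 4.3.3; quasi-likelihood, TMM, filterByExpr, 2-sided) with group and preparation as terms, since the study's own methods used the donor as a random effect. After group means were subtracted, same-preparation libraries had a mean correlation of 0.221 (0.0773, 0.195 and 0.458 within preparations 1, 2 and 3), with single pairs as low as -0.691. Between preparations the mean was -0.164. Subtracting the means of small groups itself pulls this value below 0, so it is not a neutral baseline. The pairing comes from islets of 1 isolation divided over groups. Alternatives were DESeq2 1.42.0, other scalings and filters, no block, the sheet's labels, subsets of libraries, each library or preparation left out, and, added after the data were seen, ambiguous reads as a covariate. The test was tried on simulated data. The members and gene lists were chosen with earlier results of these data known. Named genes are the members, the 5 genes most like each (mean of at least 1 CPM) and the first genes by p of each list among those that passed. Genes that share reads with close copies could not be separated, and strand use in counting is not given in the sources used here. Intervals on single libraries cover counting error only. Promoter sequences are from RefSeq, GRCr8.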

Additional observations from a re-analysis of the deposited data

Results flagged for a closer look

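With the groups of the sample records, the compound D effect differed between 24 h and 3 h for all 3 members, by a test of the difference itself in edgeR. It changed by -2.29 for Nr4a1 (SE 0.59, adjusted p = 0.0278), by -3.42 for Nr4a2 (SE 0.45, adjusted p = 0.000749) and by -6.63 for Nr4a3 (SE 0.83, adjusted p = 0.000566) on the log2 scale. With compound D the members were lower than GLT alone in 3 of 3 preparations at 24 h and higher in 3 of 3 at 3 h. With the sheet's groups the differences were 1.06, 0.59 and -0.91 and none passed, so these results rest on which of conditions 2 and 3 is 3 h GLT. The red cell markers summed to 8.99 to 13.8 CPM in condition 2 and 0.571 to 0.665 CPM in condition 3, against 4.03 to 14.2 CPM in the undisputed 3 h libraries and 0.377 to 1.34 CPM in the undisputed 24 h libraries, which is the order of the sheet. All undisputed 24 h libraries had GLT and no undisputed 3 h library had GLT alone, so this order does not settle the labels. Even with the records' groups, none of the 3 passed without preparation 1 (adjusted p = 0.189 for Nr4a1, adjusted p = 0.0669 for Nr4a2 and adjusted p = 0.0568 for Nr4a3 in edgeR). Nr4a1 also did not pass without preparation 2 (adjusted p = 0.0646), without preparation 3 (adjusted p = 0.0559) or without the block (adjusted p = 0.0562).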

How the results depend on the processing

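Of 339 values of the 36 member results under alternatives other than leaving out libraries, 298 kept direction and side of the threshold, as did 786 of 864 leave-out values. Where a call moved below, the cause was not tested. With library size only, Nr4a1 with compound E at 24 h reversed to -0.17, and Nr4a2 between compounds (1.49) and Nr4a2 and Nr4a3 in 24 h GLT against condition 3 (1.36 and 2.38) no longer passed. Without the replicate block for the preparation pairing, Nr4a2 between compounds (1.66), Nr4a1 in 24 h against 3 h of GLT with compound D (-1.81), Nr4a2 in 24 h GLT against condition 3 (1.24) and Nr4a1 for the change of the compound D effect (-2.47) no longer passed, and the block changed no other member call. In the 15 undisputed libraries Nr4a2 between compounds (1.84) and Nr4a1 over time with compound D (-1.64) no longer passed. In fits of the groups compared only, Nr4a3 for compound D at 24 h (-2.16) and Nr4a2 for the change of the GLT effect (-1.75) passed, while Nr4a2 between compounds (1.71) and the members in 3 h GLT with compound D against condition 3 (1.71, 1.24 and 4.39) did not. With ambiguous reads as a covariate, Nr4a3 in 24 h GLT against condition 3 (2.21) and Nr4a1 and Nr4a2 in 3 h GLT with compound D against condition 3 (1.51 and 1.32) did not pass. DESeq2 also called Nr4a3 for compound D at 24 h (-2.10), for 3 h GLT with compound D against control (2.28) and for condition 3 against 3 h control (-2.31), and Nr4a2 for the change of the GLT effect (-1.74).

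With the sheet's labels, the values in the order Nr4a1, Nr4a2, Nr4a3 were 0.67, 1.27 and 2.30 for 24 h GLT against 24 h control, 2.69, 3.02 and 3.42 for 3 h GLT against 3 h control, -0.65, -0.99 and -2.29 for 24 h against 3 h control, -2.67, -2.74 and -3.41 for 24 h against 3 h GLT, and -1.62, -2.66 and -1.14 for compound D at 3 h, all with the sign turned from the records' reading. The change of the compound D effect was 1.06, 0.59 and -0.91.

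Leaving out each library or preparation in turn moved some calls, within these log2 ranges. For condition 2 against 3 h control the range was 2.15 to 3.00 for Nr4a1, 2.94 to 3.16 for Nr4a2 and 2.99 to 4.13 for Nr4a3. For 24 h against 3 h of GLT with compound D the range was -1.98 to -0.98 for Nr4a1, -2.53 to -1.69 for Nr4a2 and -4.76 to -3.69 for Nr4a3. For 24 h GLT against condition 2 the range was -3.06 to -1.99 for Nr4a1, -2.89 to -2.63 for Nr4a2 and -3.53 to -3.33 for Nr4a3. For change of the compound D effect from 3 h to 24 h the range was -2.71 to -1.63 for Nr4a1, -3.79 to -2.96 for Nr4a2 and -7.04 to -6.001 for Nr4a3. For 3 h GLT with compound D against condition 3 the range was 1.12 to 2.10 for Nr4a1, 0.90 to 1.73 for Nr4a2 and 3.96 to 5.05 for Nr4a3. For 24 h GLT against condition 3 the range was 1.10 to 1.40 for Nr4a2 and 2.12 to 2.43 for Nr4a3. For 3 h GLT with compound D against 3 h control the range was -0.10 to 0.75 for Nr4a2 and 1.33 to 3.27 for Nr4a3. For compound D at 24 h the range was -2.19 to -1.90 for Nr4a2 and -2.41 to -1.59 for Nr4a3. For compound E against compound D at 24 h the range was 1.14 to 2.37 for Nr4a2 and 0.04 to 2.07 for Nr4a3. For compound E at 24 h the range was -0.90 to 0.24 for Nr4a2 and -1.70 to -0.24 for Nr4a3. Over all genes, the count for compound D at 24 h was 514, against 220 without the block, 215 with library size only, 897 by DESeq2 and 0 without preparation 1. Between compounds it was 378, against 149 without the block, 0 in the groups compared only and 840 by DESeq2, and for compound E at 24 h it was 0. For the comparisons with compound E no count is given without preparation 1 or without preparation 2, where 1 compound E library is left. Counting error weighs most on Nr4a3, which had 10 to 85 counts in 24 h GLT with compound D, 31 to 47 in condition 3, and 48 and 124 in the 24 h libraries of compound E.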
